A study of Mus musculus with 8 samples.

Results

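The cytotoxic granule and effector cytokine genes followed here are 10 genes that killer lymphocytes use to attack a target cell or to signal to its neighbours. They were taken by name, with every probe set annotated to one of the 10 symbols alone, which gave 12 of the 45141 probe sets in the table and 10 of the 17097 genes with such a probe set. Prf1 and Fasl had 2 probe sets each and the other 8 genes had 1. The study compared 4 groups of sorted mouse bone marrow progenitors with 2 arrays each: KO preproNK (Nfil3 knockout prepro NK cells), WT preproNK (wild type prepro NK cells), KO ALP (Nfil3 knockout all lymphoid progenitors) and WT ALP (wild type all lymphoid progenitors). All 8 samples came from lineage depleted marrow of mice that also carry an ID2-GFP reporter, and the cells were lysed straight after sorting. The ALP is an early lymphoid progenitor and the prepro NK cell a later one on the way to natural killer (NK) cells. Replicate 1 and replicate 2 mark 2 processing dates. The labels give neither the kind of Nfil3 deletion, nor the age of the mice, nor how many mice were pooled.

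NK cells and cytotoxic T cells store perforin and granzymes in secretory lysosomes and release them at the contact with a target, where perforin opens the membrane and granzymes enter and cleave proteins that start cell death. The same cells secrete interferon gamma and chemokines and carry Fas ligand, which kills through the death receptor Fas. T-bet and Eomes (T-box factors) and Runx3 are known to switch on several of these genes as lymphocytes mature, and Nfil3 is a bZIP transcription factor that NK cell development needs.

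Each probe set has 1 log2 value per array, and 1 unit is a doubling of the signal. The median over all probe sets lay between 3.93 and 4.27 on the 8 arrays. The files carry no detection calls, so a value below its array's median was read as near background. The WT preproNK replicate 2 array stood apart, with a correlation of 0.621 with the other WT preproNK array across 11583 tested genes against 0.963 between the KO preproNK arrays, a narrower spread (SD of 1.39 over the whole table, 1.55 to 1.88 elsewhere), and 310 tested genes at a log2 value of 8 or more against 682 to 1498. Where leaving it out moves a printed mean difference of a member by over 1.5 times, or turns its sign, the value without it is given. The ALP markers Dntt, the template-independent polymerase of lymphoid progenitors, and Flt3, a cytokine receptor, followed the labels, with Dntt at 4.48 ± 0.01 in KO preproNK, 4.70 ± 0.08 in WT preproNK, 10.67 ± 0.27 in KO ALP and 10.52 ± 0.49 in WT ALP (log2 value, SD, n = 2 each). Id2, the gene behind the reporter, was above its array's median on all 8 arrays, at 10.17 ± 0.44 in KO preproNK, 9.53 ± 1.64 in WT preproNK, 6.05 ± 0.15 in KO ALP and 6.88 ± 0.08 in WT ALP (log2 value, SD, n = 2 each). The log2 value of Nfil3 itself was 3.84 and 3.57 on the KO preproNK arrays, 4.75 and 4.74 on the WT preproNK arrays, 3.41 and 4.15 on the KO ALP arrays and 6.89 and 5.50 on the WT ALP arrays, and whether its probe set lies in the deleted part is not known.

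The members differed in where they were detected. Ccl5, Gzmb, Ifng, Gzma and Fasl were near background on all ALP arrays. Ctsw, Nkg7 and the brighter probe set of Prf1 were well above the array median in both populations. Cst7 was high in both ALP groups and in KO preproNK and lowest in WT preproNK. Xcl1 stayed within 1.48 log2 of the median everywhere. All 10 members were above the array median on KO preproNK replicate 1 and 9 on KO preproNK replicate 2, against 7 and 7 on the WT preproNK arrays, 4 and 5 on the KO ALP arrays and 4 and 5 on the WT ALP arrays.

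**Figure D1:**
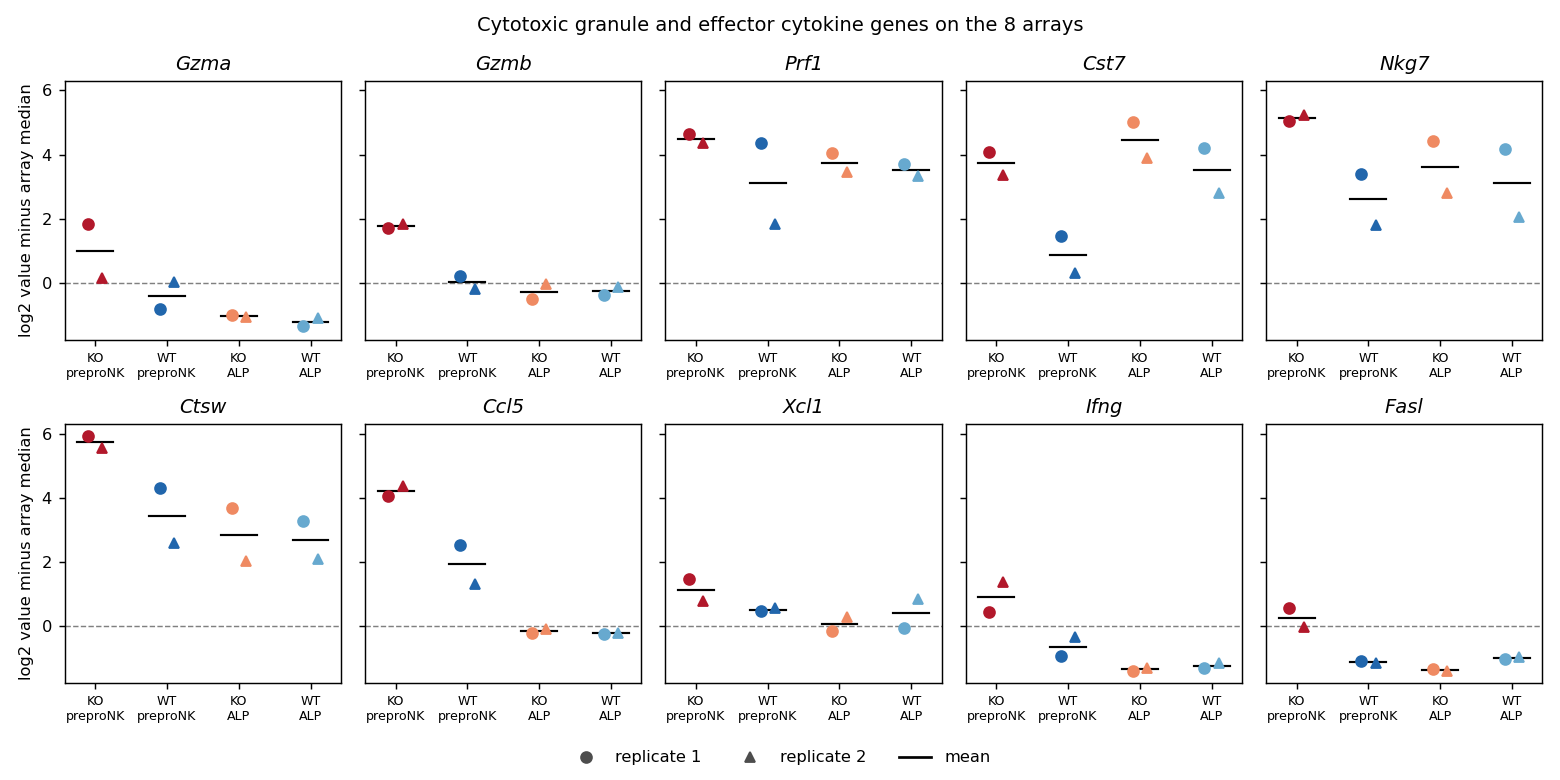
Log2 value minus the array median (vertical axis, log2 units) of the 10 genes in the 4 groups (horizontal axis), 1 point per array, with replicate 1 as circles, replicate 2 as triangles, the mean of each group as a bar and the array median as the dashed line at 0. For Prf1 and Fasl the brighter probe set is drawn. By the deposited values both KO preproNK arrays lie above both WT preproNK arrays for 6 of 9 tested members and for 22.7% of all tested genes. The points drawn here are shifted by the array medians, and the matching share of all genes on this scale was not computed.

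The promoter bases below are shown because 8 of the 10 members matched the RefSeq promoter table (build GRCm38.p6), and the regulators measured on the same arrays include T-box and Runx factors. The windows ran from 250 bases before to 50 after the start site. They were searched on both strands for TTATGTAA and TTACGTAA (bZIP sites of the Nfil3 kind), GGTGTGA (T-box), ACCGGAAG (ETS) and TGTGGT (Runx). No motif overlapped another in the members. The bZIP and ETS letters were in 0 of the 8 members' windows, against 0.94%, 0.12% and 2.30% of all 32851 promoters. GGTGTGA was in Nkg7 and Xcl1, 2 of 8, against 3.98% of all promoters. TGTGGT was in 6 of 8 (Gzma, Gzmb, Prf1, Cst7, Nkg7 and Xcl1), against 16.76% of all promoters. Such a match is a description of the letters and not of binding. The 250 bases upstream of the start site are printed for the granzyme gene with 2 Runx matches, for the member with both kinds of match and for the member with the widest knockout difference, 5′ to 3′ on the gene's strand, with matches in capitals. Gzmb is on the minus strand at chr14:56262335-56262584, Nkg7 on the plus strand at chr7:43436888-43437137 and Cst7 on the plus strand at chr2:150570165-150570414.
Gzmb: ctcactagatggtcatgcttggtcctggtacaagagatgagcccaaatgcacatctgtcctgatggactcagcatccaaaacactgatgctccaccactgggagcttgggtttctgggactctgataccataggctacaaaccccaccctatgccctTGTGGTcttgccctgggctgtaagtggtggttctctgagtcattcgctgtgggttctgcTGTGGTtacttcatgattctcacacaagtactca
Nkg7: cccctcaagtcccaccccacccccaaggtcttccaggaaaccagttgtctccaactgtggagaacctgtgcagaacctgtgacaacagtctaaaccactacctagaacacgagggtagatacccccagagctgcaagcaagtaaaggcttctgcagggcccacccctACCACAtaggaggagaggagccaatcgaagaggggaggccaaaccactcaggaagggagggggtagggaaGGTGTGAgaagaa
Cst7: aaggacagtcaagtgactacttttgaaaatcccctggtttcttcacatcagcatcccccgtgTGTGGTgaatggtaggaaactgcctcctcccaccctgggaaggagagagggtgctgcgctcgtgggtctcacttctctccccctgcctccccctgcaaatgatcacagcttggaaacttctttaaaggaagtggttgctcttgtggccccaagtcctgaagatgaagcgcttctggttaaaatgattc
Counted from the start site, the Gzmb matches began at -93 and -34, the Runx match of Nkg7 at -83, its T-box match at -13 and the Cst7 match at -188.

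Of the granule enzymes, Gzmb, whose protease cleaves caspases in the target (Entrez gene 14939, chromosome 14, 56258836 to 56262334 in GRCm38.p6), had log2 values of 5.70 and 5.86 on the KO preproNK arrays, 4.23 and 4.10 on the WT preproNK arrays, 3.45 and 3.98 on the KO ALP arrays and 3.59 and 4.02 on the WT ALP arrays. The KO preproNK arrays were the only 2 clearly above the array median, since WT preproNK lay at percentiles 54.4 and 45.4 of all probe sets on its arrays and KO preproNK at 75.5 and 77.7. Gzma, a tryptase-like granzyme (Entrez gene 14938, chromosome 13, 113093824 to 113100981), had log2 values of 5.81 and 4.17 in KO preproNK, 3.21 and 4.29 in WT preproNK, 2.93 and 2.96 in KO ALP and 2.62 and 3.05 in WT ALP. The preproNK groups overlapped, and KO preproNK replicate 1 was the one high value. Prf1, the pore-forming protein (Entrez gene 18646, chromosome 10, 61297751 to 61304684), had log2 values of 8.61 and 8.36 in KO preproNK, 8.39 and 6.12 in WT preproNK, 7.97 and 7.46 in KO ALP and 7.68 and 7.47 in WT ALP by its brighter probe set. The array that stood apart was the one low value, and without it the 7 others lay within 7.46 to 8.61. The other probe set of Prf1 was near the array median throughout, at 4.77 and 4.14, 4.24 and 4.48, 3.64 and 4.12, and 3.67 and 4.55 in the same order of groups, and which of them follows perforin RNA was not tested.

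Of the genes for other granule proteins, Ctsw, the cathepsin of NK and cytotoxic T cells (Entrez gene 13041, chromosome 19, 5465043 to 5468628), had log2 values of 9.90 and 9.57 in KO preproNK, 8.32 and 6.85 in WT preproNK, 7.61 and 6.04 in KO ALP and 7.24 and 6.21 in WT ALP. Both KO preproNK arrays exceeded the other 6, and in every group replicate 1 was above replicate 2. Nkg7, a granule membrane protein (Entrez gene 72310, chromosome 7, 43437138 to 43438246), had log2 values of 9.03 and 9.23 in KO preproNK, 7.41 and 6.08 in WT preproNK, 8.35 and 6.83 in KO ALP and 8.15 and 6.20 in WT ALP. Its values were at percentiles 91.8 and 87.7 in WT preproNK, within the 86.3 to 95.9 of the ALP arrays, and at 98.0 and 98.4 in KO preproNK. Cst7, which encodes cystatin F, an inhibitor of the cathepsins that activate granzymes (Entrez gene 13011, chromosome 2, 150570415 to 150578944), had log2 values of 8.05 and 7.39 in KO preproNK, 5.47 and 4.57 in WT preproNK, 8.94 and 7.89 in KO ALP and 8.18 and 6.93 in WT ALP. Both WT preproNK arrays lay below the other 6, at percentiles 73.3 and 57.8 against 91.3 to 97.6 elsewhere.

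Of the secreted proteins, Ccl5, a chemokine stored by memory and effector lymphocytes (Entrez gene 20304, chromosome 11, 83525778 to 83530518), had log2 values of 8.02 and 8.38 in KO preproNK, 6.56 and 5.60 in WT preproNK, 3.71 and 3.93 in KO ALP and 3.73 and 3.93 in WT ALP. The 3 levels, KO preproNK, then WT preproNK, then both ALP groups near background, did not overlap, and the ALP groups could not be told apart. Ifng, the interferon gamma gene (Entrez gene 15978, chromosome 10, 118441046 to 118445894), had log2 values of 4.43 and 5.40 in KO preproNK, 3.11 and 3.92 in WT preproNK, 2.56 and 2.73 in KO ALP and 2.69 and 2.98 in WT ALP, so that it exceeded the array median on the KO preproNK arrays alone. Xcl1, a chemokine that draws cross-presenting dendritic cells (Entrez gene 16963, chromosome 1, 164931644 to 164935522), had log2 values of 5.46 and 4.81 in KO preproNK, 4.49 and 4.83 in WT preproNK, 3.78 and 4.30 in KO ALP and 3.92 and 4.98 in WT ALP. Of the 4 comparisons between groups made here, KO preproNK against KO ALP was the only one in which its values did not overlap. Fasl, the death ligand (Entrez gene 14103, chromosome 1, 161780691 to 161788495), had log2 values of 4.55 and 3.99 in KO preproNK, 2.93 and 3.14 in WT preproNK, 2.62 and 2.62 in KO ALP and 2.94 and 3.18 in WT ALP. Only KO preproNK replicate 1 was above its array's median, so Fasl did not pass the filter on dim probe sets (above the median on at least 2 of 8 arrays) and has no test. Its other probe set was at 4.09 and 3.28, 3.22 and 2.88, 2.60 and 2.58, and 2.75 and 2.81 in the same order of groups.

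The effect of Nfil3 loss in preproNK was the first comparison, and most members had higher values in KO preproNK without passing the test. These are bulk samples, so a change in the share of cells of a type and one in the RNA per cell cannot be told apart. Comparing replicate 1 arrays, all 10 were higher in KO, and comparing replicate 2 arrays, 8 of 10 were, the others being Gzma and Xcl1. Relative to each array's median, which is higher on WT preproNK replicate 2, all 10 were higher in KO in both pairs. The direction of Gzma (0.13) and Xcl1 (0.24) in the second pair thus depends on the scale. That shift raises the second difference of every gene alike. Even before it, the median of all tested genes there was 0.287, above both values. How many of all genes were higher after the shift was not computed, so this count of members has no background. The log2 difference, KO minus WT, was 2.70 for Cst7 (SE 0.60, 95% interval 1.32 to 4.08), 2.39 for Nkg7 (SE 0.78, 0.58 to 4.20), 2.15 for Ctsw (SE 0.69, 0.55 to 3.75) and 2.12 for Ccl5 (SE 0.42, 1.14 to 3.10). These are 6.50-fold, 5.23-fold, 4.44-fold and 4.35-fold. Gzmb differed by 1.61 (SE 0.37, 0.75 to 2.48) and Ifng by 1.40 (SE 0.47, 0.33 to 2.48). With values below the array median set to that median, which was done for every fold against near-background values, Gzmb was at least 2.89-fold and Ifng at least 1.71-fold higher. Gzma differed by 1.24 (SE 0.61), Prf1 by 1.23 (SE 0.68) and Xcl1 by 0.48 (SE 0.48), with intervals that include 0, and Fasl by 1.24 with no test.

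By limma, with Benjamini-Hochberg adjustment over 11583 genes, 0 of the 9 tested members were called in KO against WT preproNK at an adjusted p under 0.05, where the background was 0% of all genes. Their adjusted p was 0.337 for Ccl5, 0.418 for Cst7, 0.427 for Gzmb and 0.613 to 0.645 for the others. At an unadjusted p under 0.05 stood 6 of 9 members and 625 of 11583 genes. With the replicate number as a block, Cst7 was called (adjusted p = 0.0457) and the other 8 were not, where 0.0863% of genes were called higher. Both KO arrays exceeded both WT arrays for 6 of 9 tested members and for 22.7% of all tested genes by the deposited values. Ifng passed the filter through the 2 KO preproNK arrays alone, Gzma and Gzmb through these and 1 WT preproNK array, and Ccl5 through all 4 preproNK arrays. Ifng had to be high in KO preproNK to be tested, and Gzma and Gzmb could not have been tested without the KO preproNK arrays. The intervals and p of Ifng, Gzma and Gzmb in any comparison with that group are therefore descriptions. The counts over tested members lean towards such differences.

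The replicate pairs differed for several members. In the replicate 1 pair, which does not hold the array that stood apart, the log2 difference was 2.60 for Gzma, 2.58 for Cst7, 1.63 for Nkg7, 1.62 for Fasl, 1.59 for Ctsw, 1.47 for Gzmb, 1.46 for Ccl5, 1.33 for Ifng, 0.97 for Xcl1 and 0.22 for Prf1. Of the 9 tested members 7 were above 1 there, and Fasl too, against 2.87% of tested genes. In the replicate 2 pair it was -0.13 for Gzma, 2.82 for Cst7, 3.15 for Nkg7, 0.85 for Fasl, 2.72 for Ctsw, 1.76 for Gzmb, 2.79 for Ccl5, 1.48 for Ifng, -0.02 for Xcl1 and 2.24 for Prf1. There 7 of 9 tested members were above 1, against 32.1% of tested genes. Cst7, Gzmb and Ifng thus kept their size between the pairs, while the differences of Prf1 and Gzma each came from 1 pair. Without WT preproNK replicate 2 the log2 difference was 0.095 for Prf1, 1.42 for Ctsw, 1.64 for Ccl5 and 2.25 for Cst7. The median over the 9 tested members was then 1.64, against 0.00589 over all tested genes. Without WT preproNK replicate 1, which leaves the narrow array as the only WT preproNK sample, these medians were 2.37 and 0.312. Every member tested was higher in KO preproNK than in WT preproNK under each of the 18 alternatives run, the stricter filter testing 6 members and the fit with no filter all 10.

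**Figure D2:**
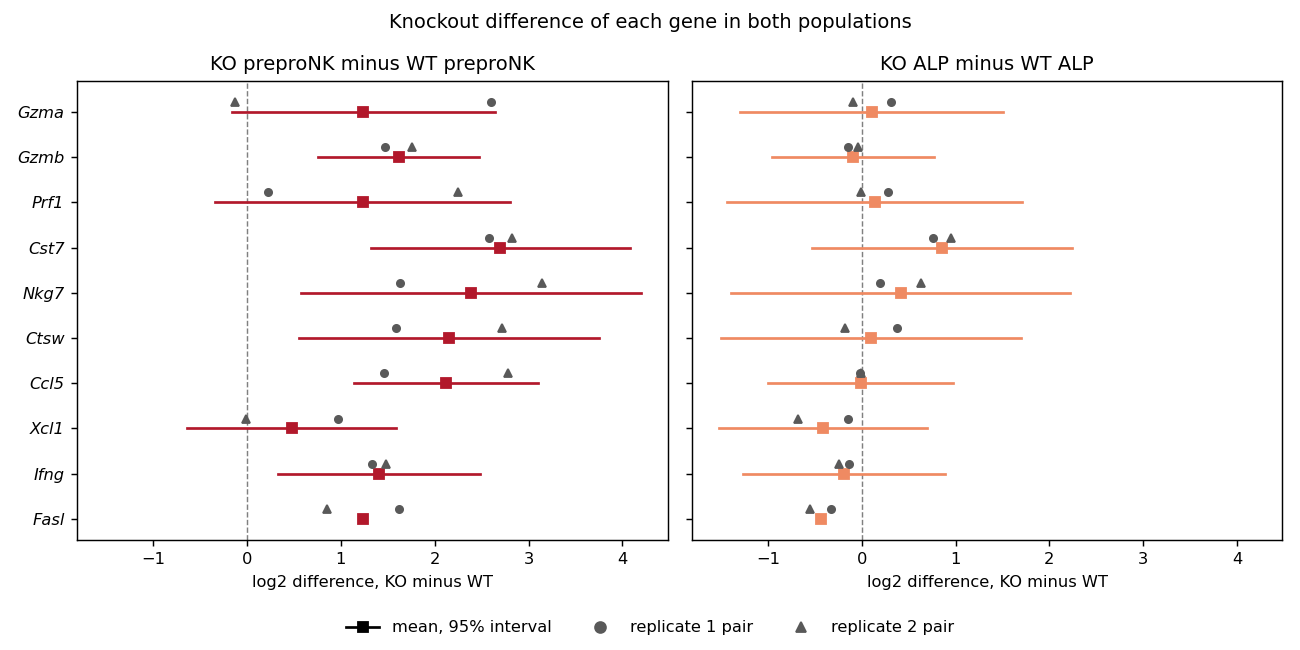
Log2 difference, KO minus WT (horizontal axis), of each gene (vertical axis) in preproNK (left) and ALP (right). Squares are means over the pairs with 95% intervals of the limma fit, circles the replicate 1 pair and triangles the replicate 2 pair, and Fasl, which was not tested, has no interval. In preproNK the intervals of Gzmb, Cst7, Nkg7, Ctsw, Ccl5 and Ifng lie above 0, and in ALP every interval includes 0.

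In ALP the members did not differ detectably between the genotypes. The largest log2 difference, KO minus WT, was 0.86 for Cst7 (SE 0.60, 95% interval -0.53 to 2.24), with 0.76 and 0.96 in the replicate 1 and 2 pairs, although the ranges of the groups overlapped. Nkg7 differed by 0.41 (SE 0.78, -1.40 to 2.23). Xcl1 differed by -0.41 (SE 0.48), Ifng by -0.19 (SE 0.47), Prf1 by 0.14 (SE 0.68), Gzma by 0.11 (SE 0.61), Ctsw by 0.10 (SE 0.69), Gzmb by -0.09 (SE 0.37) and Ccl5 by -0.01 (SE 0.42, -0.99 to 0.97). Fasl, below the median on all ALP arrays, differed by -0.44. By limma 0 of 9 members were called (adjusted p = 1 each), where the background was 0% of genes, and 0 of 9 members and 5 of 11583 genes had an unadjusted p under 0.05. Both KO arrays exceeded both WT arrays for 0 of 9 members and 8.68% of genes. Gzma, Gzmb, Ccl5 and Ifng were below the median on all 4 ALP arrays, so for these genes the comparison is between values near background. The intervals still allow a change of more than 1 log2 for Gzma, Prf1, Cst7, Nkg7, Ctsw, Xcl1 and Ifng.

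The interaction asked whether the knockout difference was larger in preproNK than in ALP. Its value was positive for all 9 tested members, from 0.89 for Xcl1 to 2.13 for Ccl5, but 0 of 9 were called by limma (adjusted p = 1 each, background 0% of genes). Ccl5 had 2.13 (SE 0.60, 95% interval 0.74 to 3.52), Ctsw 2.05 (SE 0.98), Nkg7 1.97 (SE 1.11), Cst7 1.84 (SE 0.84), Gzmb 1.71 (SE 0.53, 0.49 to 2.92) and Ifng 1.59 (SE 0.66, 0.07 to 3.11). At an unadjusted p under 0.05 were 3 of 9 members (Ccl5, Gzmb and Ifng) and 183 of 11583 genes. Of these members, Gzmb and Ifng are subject to the filter as above. Gzma had 1.13 (SE 0.86) and Prf1 1.09 (SE 0.96). Without WT preproNK replicate 2 the value of Prf1 was -0.04, those of Ctsw, Nkg7 and Gzma were 1.32, 1.31 and 1.67, and all but Prf1 stayed positive.

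Between the populations, 2 members passed the test in the knockout and none in the wild type, and the difference between the genotypes, the interaction above, was not called. In KO preproNK against KO ALP, Ccl5 rose by 4.38 log2 (SE 0.42, limma adjusted p = 0.00569), which is at least 18.8-fold, and Gzmb by 2.07 (SE 0.37, adjusted p = 0.0408), at least 3.50-fold. These 2 of 9 tested members were called higher and 0 lower, where 1.22% of genes were called higher and 0.535% lower. Gzmb could not have entered the test without the KO preproNK arrays, and Ccl5 was above the array median on the preproNK arrays alone. Both calls, and the p of Ccl5 in the wild type below, are therefore descriptions. The counts over tested members lean towards higher values in preproNK. Ctsw differed by 2.91 (SE 0.69, adjusted p = 0.105), Ifng by 2.27 (SE 0.47, adjusted p = 0.0653) and Gzma by 2.04 (SE 0.61, adjusted p = 0.207), with limma. Nkg7 differed by 1.54 (SE 0.78), Xcl1 by 1.10 (SE 0.48), Prf1 by 0.77 (SE 0.68) and Fasl by 1.64 with no test. Cst7 alone had a lower mean in KO preproNK, by -0.70 (SE 0.60), with overlapping groups. Both KO preproNK arrays exceeded both KO ALP arrays for 8 of 9 tested members, all but Cst7, and for 22.2% of genes.

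The calls in the knockout changed with the way the fit was made. With the replicate number as a block 4 of 9 members were called by limma, Ccl5, Gzmb, Ctsw (adjusted p = 0.00786) and Ifng (adjusted p = 0.0126). Of all 11583 genes, 300 were called higher and 149 lower in that fit. Ifng had entered the test through KO preproNK alone, Gzmb could not have entered it without these arrays, and Ccl5 entered through preproNK arrays alone. Leaving out 1 array leaves 1 sample in its group. The calls among the members and those over all genes both moved then, as listed in the closing section, so they are no result about the members. With each array left out in turn, the log2 difference of Ccl5 stayed within 4.20 to 4.56.

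In WT preproNK against WT ALP, 0 of 9 members were called by limma, where 0.0345% of genes were called higher and 0.0604% lower, and 2 of 9 members and 852 of 11583 genes had an unadjusted p under 0.05. These were Ccl5, with a log2 difference of 2.25 (SE 0.42, adjusted p = 0.148, at least 4.09-fold), and Cst7, with one of -2.54 (SE 0.60, adjusted p = 0.251, a ratio of 5.82 in favour of WT ALP). Both held in each pair, with 2.83 and 1.66 for Ccl5 and -2.71 and -2.37 for Cst7 in the replicate 1 and 2 pairs. With the replicate block Cst7 was called by limma (adjusted p = 0.0296), where 31 of 11583 genes were called higher and 36 lower. Without WT preproNK replicate 2 the log2 difference was 2.73 for Ccl5 and -2.09 for Cst7. The others were Gzma at 0.92 (SE 0.61), Ctsw at 0.86 (SE 0.69), Ifng at 0.68 (SE 0.47), Gzmb at 0.36 (SE 0.37), Xcl1 at 0.21 (SE 0.48), Prf1 at -0.32 (SE 0.68) and Nkg7 at -0.43 (SE 0.78). Without WT preproNK replicate 2 these were 0.37 for Gzma, 1.59 for Ctsw, 0.27 for Ifng, 0.43 for Gzmb, 0.037 for Xcl1, 0.82 for Prf1 and 0.23 for Nkg7. Both WT preproNK arrays were above both WT ALP arrays for Gzma, Gzmb, Ccl5 and Ifng, 4 of 9 (9.73% of genes), and below them for Cst7, 1 of 9 (14.9% of genes). Relative to the array medians, Gzmb overlapped in this comparison. Ifng was below the median on every array of these groups. Gzma was below it on both WT ALP arrays and on WT preproNK replicate 1, and 0.028 log2 above it on WT preproNK replicate 2. For Ifng and Gzma this is a comparison of values near background. The 2 population differences share no arrays, and their difference per gene is the interaction above.

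**Figure D3:**
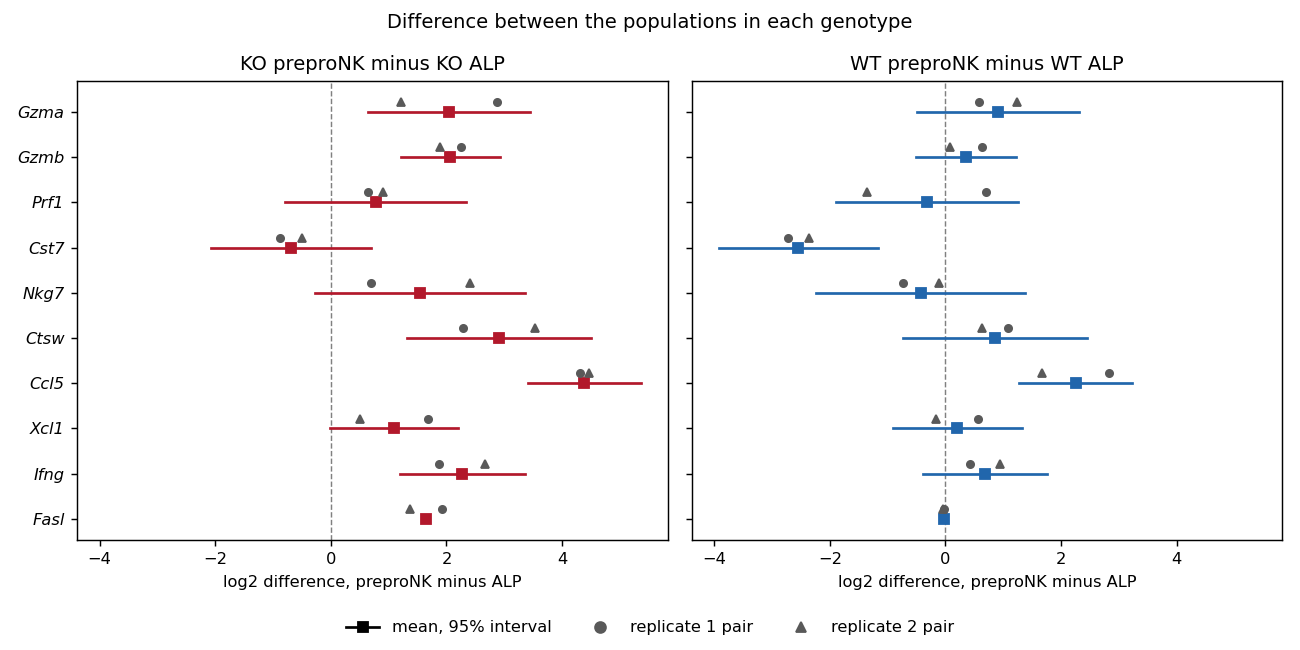
Log2 difference, preproNK minus ALP (horizontal axis), of each gene (vertical axis) in the knockout (left) and in the wild type (right). Squares are means with 95% intervals of the limma fit, circles the replicate 1 pair and triangles the replicate 2 pair, and Fasl has no interval. Ccl5 has the highest value in both genotypes, at 4.38 and 2.25, and Cst7 the lowest, at -0.70 and -2.54.

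Other genes of the same machinery were read from lists by role. Of 8 other granzyme genes (Gzmc, Gzmd, Gzme, Gzmf, Gzmg, Gzmk, Gzmm and Gzmn), all were measured and 1 passed the filter, Gzmm, with 4.81 ± 0.17 in KO preproNK, 4.98 ± 0.86 in WT preproNK, 4.43 ± 0.21 in KO ALP and 4.32 ± 0.41 in WT ALP (log2 value, SD, n = 2 each). The values of the other 7 were below the median on all arrays apart from Gzmk on 1. Granzyme genes are near copies of each other, and how far their probes share targets was not tested.

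Granule maturation and exocytosis genes had higher means in KO preproNK than in WT preproNK for 16 of 16 tested of 18 listed, with 0 called and a median log2 difference of 1.11, against 0.147 over all tested genes. Pair by pair, that median came to 0.363 (replicate 1) and 1.82 (replicate 2), and without WT preproNK replicate 2 it was 0.321, with 14 of 16 higher. Lyst, a regulator of lysosome size, differed by 2.10 (SE 0.61), Rab27a, the GTPase that docks granules, by 1.54 (SE 0.55) and Stx11, a membrane fusion protein, by 1.05 (SE 0.37), each with a limma adjusted p of 0.613. Without WT preproNK replicate 2 these differences were 1.18 for Lyst, 0.78 for Rab27a and 0.78 for Stx11. Stx11 was above the array median on the KO preproNK arrays alone and entered the test through them. Its values in comparisons with that group are descriptions, and its place among the 16 higher genes was favoured by the filter. In KO preproNK against KO ALP 0 of 16 were called, with Stx11 at 1.64 (SE 0.37) and Hcst, the adaptor of NKG2D, at 2.41 (SE 0.60). In WT preproNK against WT ALP and in KO against WT ALP 0 of 16 were called, and the medians were -0.132 (0.735 without WT preproNK replicate 2) and 0.27.

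Of 10 other effector cytokine, chemokine and death ligand genes 9 were tested and 0 were called in any of the 5 comparisons. Tnf, the tumour necrosis factor gene, had the smallest unadjusted p in KO against WT preproNK, with a log2 difference of 1.40 (SE 0.36, limma adjusted p = 0.534) and one of 1.64 (SE 0.36) in KO preproNK against KO ALP. Csf2, the GM-CSF gene, differed the other way, by -1.02 (SE 0.35), and by 1.43 (SE 0.35) in WT preproNK against WT ALP. The chemokine genes Ccl3 and Ccl4, which NK cells release with Ccl5, did not follow it (chosen after their values were seen), with log2 means of 4.85 and 3.94 in KO preproNK, 5.43 and 4.49 in WT preproNK, 5.14 and 4.48 in KO ALP and 5.25 and 4.36 in WT ALP. Of 9 listed receptors, for the members' ligands and for tumour necrosis factor, 4 were tested and 0 called. These were Ifngr1 and Ifngr2, for interferon gamma, and Tnfrsf1a and Tnfrsf1b, for tumour necrosis factor. Ifngr1, the ligand-binding chain for interferon gamma, had a log2 difference of 2.61 (SE 0.66, limma adjusted p = 0.52) in KO against WT preproNK (1.73 without WT preproNK replicate 2). In KO preproNK against KO ALP it was 2.88 (SE 0.66). Of the serpins that inhibit granzymes 2 of 5 were tested and 0 called, with Serpinb6a at 0.52 (SE 0.37) in KO against WT preproNK. Serpinb6a could not have been tested without the KO preproNK arrays, so this value is a description.

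Of 20 regulators of effector genes 17 were tested. In KO preproNK against KO ALP 3 rose by limma and 0 fell, Tbx21, the T-bet gene, by 5.55 log2 (SE 0.44, adjusted p = 0.00314), Hopx, a homeodomain cofactor, by 3.46 (SE 0.45, adjusted p = 0.0118) and Id2 by 4.12 (SE 0.69, adjusted p = 0.0326), where 1.22% of all genes were called higher and 0.535% lower. Tbx21 and Hopx were above the array median on the preproNK arrays alone, so their calls between the populations are descriptions. In KO against WT preproNK 0 were called, with Tbx21 at 2.78 (SE 0.44, adjusted p = 0.188) and Hopx at 2.73 (SE 0.45, adjusted p = 0.213). The log2 values of Tbx21 were 7.84 and 8.82 in KO preproNK, 5.67 and 5.42 in WT preproNK, 2.54 and 3.01 in KO ALP and 2.56 and 2.86 in WT ALP, the same order of groups as Ccl5. Eomes, at 4.38 and 4.46 in KO preproNK and 4.04 and 5.73 in WT preproNK, overlapped between the genotypes. Runx3 was high everywhere, at 8.60 ± 0.03 in KO preproNK, 7.81 ± 0.58 in WT preproNK, 7.98 ± 0.15 in KO ALP and 7.60 ± 0.15 in WT ALP (log2 value, SD, n = 2 each). Prdm1, the Blimp-1 gene, had 4.48 ± 0.17 in KO preproNK, 4.94 ± 0.25 in WT preproNK, 3.51 ± 0.56 in KO ALP and 3.75 ± 0.45 in WT ALP.

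Markers of other cells that use these genes moved with some of them. The T cell markers (14 of 16 measured) had a summed linear value of 5786 to 6484 on the KO preproNK arrays, 1124 to 2472 on the WT preproNK arrays, 419 to 467 on the KO ALP arrays and 523 to 533 on the WT ALP arrays. Of their 13 tested members 10 rose in KO preproNK against KO ALP (1.22% of all genes) and 0 were called in KO against WT preproNK (0% of all genes), where their median log2 difference was 1.67, with pairwise medians of 1.51 (replicate 1) and 1.93 (replicate 2). Cd3e, Cd3g and Cd28 entered the test through the preproNK arrays alone, so the count between the populations leans towards a rise. In KO against WT preproNK 11 of the 13 T cell markers had a higher mean and 2 a lower one, the CD8 genes Cd8a and Cd8b1. Their log2 means were 5.78 and 4.25 in KO preproNK and 6.10 and 4.40 in WT preproNK, with overlapping arrays. The part of the T cell markers in the members' differences was not tested. The mature NK markers (12 of 15 measured) summed to 400 to 448 in KO preproNK, 403 to 713 in WT preproNK, 207 to 267 in KO ALP and 218 to 363 in WT ALP. Klrg1 was their highest gene on WT preproNK replicate 1, at 8.90, and Ncr1, the defining NK receptor gene NKp46, was below the median on all 8 arrays. The preproNK markers (6 of 8 measured) summed to 1740 to 2385 in KO preproNK and 522 to 2125 in WT preproNK. Between these groups 4 of the 6 were higher in KO and 2 lower, with 0 called. The widest log2 differences were 2.64 for Il2rb and 2.48 for Klrk1. Mast cell and basophil markers, of cells that also hold granule proteases, summed to 129 to 484 in KO preproNK and 275 to 323 in WT preproNK. Neutrophil and monocyte granule markers summed to 1045 to 1379 in KO preproNK, 304 to 1133 in WT preproNK, 922 to 1958 in KO ALP and 857 to 1738 in WT ALP. The markers of group 2 innate lymphoid cells summed to 1017 to 1260 in KO preproNK and 566 to 3278 in WT preproNK.

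**Figure D4:**
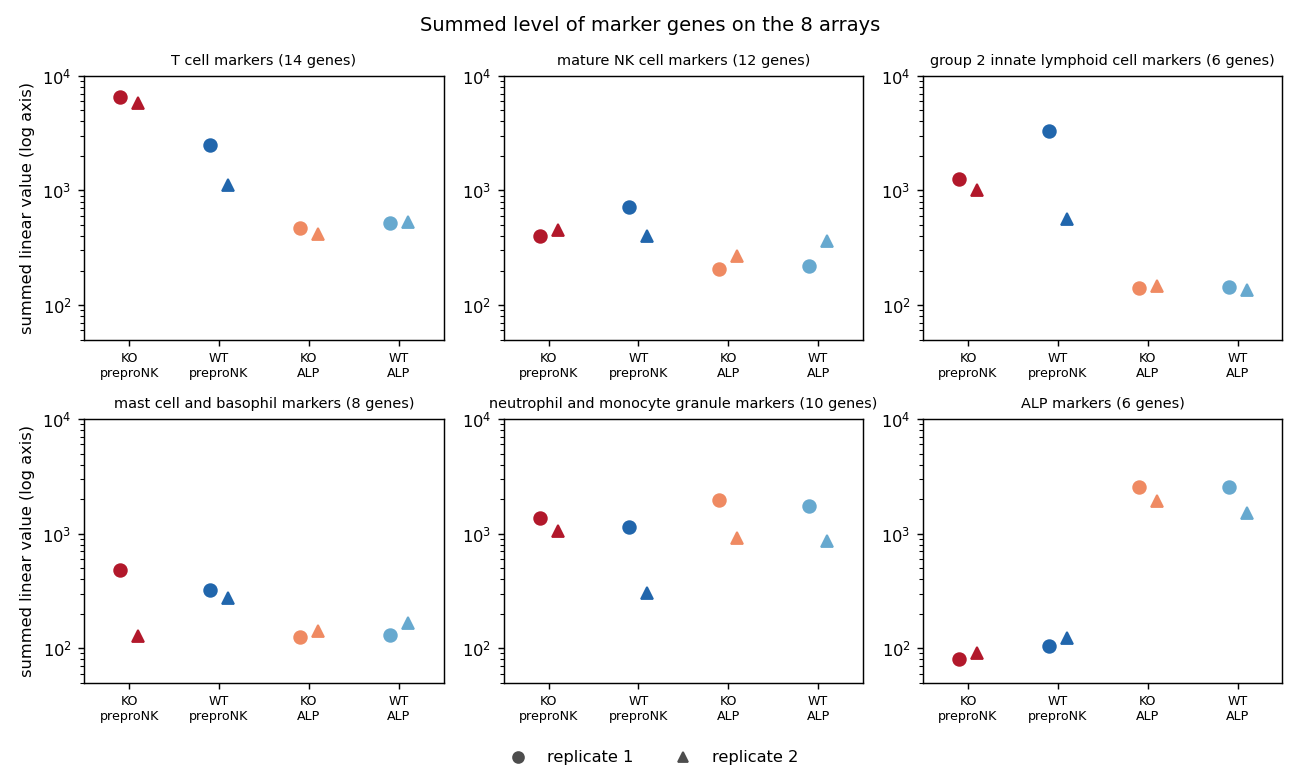
Summed linear value of the measured genes of 6 marker lists (vertical axis, log scale) on each array of the 4 groups (horizontal axis), with replicate 1 as circles and replicate 2 as triangles. The T cell list is at 5786 to 6484 on the KO preproNK arrays and at 1124 to 2472 on the WT preproNK arrays, while the mature NK list overlaps between them.

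The members did not all follow 1 pattern. Across the 8 arrays the correlation of a member with the mean of the other tested members, each centred on its own mean, was 0.929 for Ctsw, 0.902 for Gzmb, 0.805 for Ccl5, 0.76 for Ifng, 0.757 for Nkg7, 0.703 for Gzma, 0.632 for Prf1, 0.492 for Xcl1 and 0.0373 for Cst7. The 6 other genes most like the mean of the 9 members over the 8 arrays were Cd247, the T cell receptor zeta chain (r = 0.997), Actn2, an actinin (0.993), Cd55, a complement inhibitor (0.988), Sox13, a transcription factor (0.988), Syt11, a synaptotagmin (0.987), and Fbxl2, an F-box protein (0.987). These values describe 8 arrays that fall into 4 groups and share 1 wide contrast, KO preproNK against the rest. The log2 value of Cd247 was 9.09 and 8.87 in KO preproNK, 6.65 and 5.98 in WT preproNK, 6.25 and 5.54 in KO ALP and 5.91 and 5.62 in WT ALP.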

How the data were processed

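RNA of 8 samples was measured on 1-colour Affymetrix arrays. What the authors deposited is a log2 value for each probe set and array. The submitters' processing notes name RMA and Partek, with no versions or settings in the sources used here. RMA is meant to equalize arrays and can compress low values. The deposited values still differed between the arrays, with medians of 3.93 to 4.27 and SDs of 1.39 to 1.88. The RNA was amplified before labelling, per the labels' protocols, which can add spread.

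Of 45141 probe sets, the platform annotation gave 1 symbol to 28898, several to 551 and none to 15692. A gene was represented by its brightest single-symbol probe set and tested if above the array median on at least 2 of 8 arrays, which left 11583 genes. One limma 3.58.1 model (lmFit and eBayes, R 4.3.3) with 4 group means was fitted to all 8 arrays, leaving 4 residual degrees of freedom. Tests were two-sided, with Benjamini-Hochberg adjustment over all tested genes. The code of the fit was checked on simulated data with independent noise. That check had no narrow array and no pairing of replicates, so it does not bear on either. The labels do not say that replicates came from separate mice, so the p-values speak for the spread of these samples alone, which may be technical, and the number of arrays limits the precision. Replicate numbers mark processing dates in the series design and so pair the samples. Deviations of replicate 1 from the group means correlated at 0.149 to 0.807 between groups.

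All 10 members are named, and of the other lists up to 3 genes with the smallest unadjusted p, plus Tbx21, Eomes, Runx3, Prdm1, Id2, Nfil3 and the 6 genes most like the members' mean. The members and lists were chosen with earlier results of these data known, and the floor for folds after the values were seen. Alternatives were the replicate block, each array left out, 2 other filters, repeated quantile normalization, median centring, mean of probe sets, fits of 2 groups, array weights and a trended robust prior. Marker sums add linear values of each gene's probe set. Promoters are from RefSeq, GRCm38.p6.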

Additional observations from a re-analysis of the deposited data

How the results depend on the processing

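In KO against WT preproNK 0 of 9 members were called, 1 with the replicate block, 1 with the block and without WT preproNK replicate 2 (an alternative chosen after seeing the data), and 0 to 6 when 1 array was left out. In WT preproNK against WT ALP 0 were called, 1 with the block, 1 after repeated quantile normalization, 2 with the block and without WT preproNK replicate 2, and 0 to 2 with 1 array left out. In KO preproNK against KO ALP 2 were called, 4 with the block, 4 after repeated quantile normalization, 4 with array weights, 6 in a fit of these 2 groups alone, 5 with the block and without WT preproNK replicate 2, 1 with the stricter filter, which tests 6 members, 1 after median centring, and 0 to 4 with 1 array left out. In KO against WT ALP and for the interaction 0 were called under every alternative run. Over all genes, 141 were called higher and 62 lower in KO preproNK against KO ALP, 300 and 149 with the block, 746 and 488 in the fit of 2 groups, 540 and 362 with array weights, 768 and 470 with the block and without WT preproNK replicate 2, 90 and 26 after median centring, and from 0 and 0 to 369 and 161 with 1 array left out. In WT preproNK against WT ALP 4 were called higher and 7 lower, 31 and 36 with the block, 41 and 29 after repeated quantile normalization, 290 and 141 with the block and without WT preproNK replicate 2, 0 and 0 in the fit of 2 groups, 0 and 1 with array weights, 0 and 3 after median centring, 2 and 4 with no filter, and from 0 and 0 to 170 and 654 with 1 array left out. In KO against WT preproNK 0 were called, 10 higher with the block, 27 higher and 20 lower with the block and without WT preproNK replicate 2, and 2013 and 519 without WT preproNK replicate 1.

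The sign changed in 23 of 786 member values from the alternatives, 17 of them in KO against WT ALP, where the members lay near 0. Repeated quantile normalization turned Gzmb to 0.0049, Prf1 to -0.10, Ctsw to -0.12 and Ccl5 to 0.081 there, median centring turned Ccl5 to 0.065, and the mean of both probe sets turned Prf1 to -0.047. Leaving out 1 array gave there -0.10 to 0.32 for Gzma, -0.36 to 0.17 for Gzmb, -0.12 to 0.39 for Prf1, -0.56 to 1.39 for Nkg7, -0.69 to 0.89 for Ctsw, -0.12 to 0.094 for Ccl5 and -0.95 to 0.12 for Xcl1. In WT preproNK against WT ALP it gave -1.46 to 0.82 for Prf1, -1.40 to 0.55 for Nkg7 and -0.33 to 0.74 for Xcl1, and the block without WT preproNK replicate 2 gave Prf1 0.65. The interaction of Prf1 ranged from -0.043 to 2.23 with 1 array left out. The cause of these changes was not tested. The median knockout difference over all tested genes in preproNK was 0.147, -0.0469 after repeated quantile normalization and 0.296 after median centring, and that of the members 1.61, 1.56 and 1.76.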
